A study of Mus musculus with 2 samples.

Results

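Heme is built in a chain of enzymatic steps that begins in the mitochondrion, passes through the cytosol and ends in the mitochondrion again. Its breakdown yields biliverdin and then bilirubin, which hepatocytes conjugate and secrete into bile. The liver is a main site of heme synthesis outside the bone marrow, since cytochromes P450 of hepatocytes carry heme, and the first enzyme, 5-aminolevulinate synthase, sets the pace of the pathway. Described here are 9 genes of synthesis and breakdown, which were matched by symbol among 43280 counted gene symbols. The 7 synthesis genes are Alas1, Alad, Uros, Urod, Cpox, Ppox and Fech, and the 2 breakdown genes are Hmox1 and Blvrb. All 9 were found, and each had at least 200 reads over both libraries.

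The study compared small hepatocytes (SHs), which it uses as hepatocyte progenitors, with mature hepatocytes (MHs), both freshly isolated by collagenase perfusion from the livers of the same adult C57BL6 mice. MHs were freed of dead cells by Percoll centrifugation and were left unsorted. FACS was used to select SHs that carried ICAM-1 and lacked CD31, CD45 and EpCAM. The labels give an age of 20 weeks, whereas the methods give a younger range for the mice of the study. Each group was 1 library of poly(A) RNA, and the methods state that cells of 3 mice were used, so the spread between mice was not measured and no test between SHs and MHs was possible.

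In all, 16979136 reads were counted for MHs and 42356444 for SHs. Levels are therefore given as reads per 1000000 counted reads (RPM), and a difference as the log2 ratio of SHs over MHs with 0.5 reads added to both counts. The 95% Clopper-Pearson interval of a ratio covers counting error only. A gene is called lower or higher here when its ratio was at least 1.2-fold and its interval lay wholly on that side of 0. Markers of hepatocytes were abundant in both libraries, and none of the 6 listed (Alb, Apoa1, Ttr, Hnf4a, Cps1 and Tdo2) was called. By quantitative PCR on repeated isolations, the paper reports Cps1 as significantly higher in SHs, Hnf4a as higher and Tdo2 as lower. Of 11 markers of hepatocytes around the central vein, such as Glul and Cyp2e1, 11 were called lower in SHs, and of 10 markers of the portal side, such as Hal and Sds, 8 were called higher. The share of other cell types in each library is given beside the genes that it touches. In such bulk libraries, fewer cells of a type and less RNA of a gene per cell cannot be told apart.

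DNA at the starts of 3 of the genes is shown, because Cpox and Blvrb were the members called lower in SHs, and because Alas1 had the most reads of all members. The sequences come from RefSeq, build GRCm38.p6, in which promoter windows were found for 7 of the 9 members, all but Hmox1 and Fech. For Cpox (chr16:58669958-58670207, plus strand) and Blvrb (chr7:27447728-27447977, plus strand) these are the 250 bases before a start in RefSeq. For Cpox, that start lies upstream of the start in GENCODE M21 that is given with its values. Blvrb had 2 RefSeq windows, and the one shown in part here held all of its motif matches. For Alas1 (chr9:106247906-106247935, minus strand) it is a stretch of 30 bases inside the gene, in the first exon of 1 annotated transcript, where the motif begins at base 30 of one RefSeq start and at -195 of the other. Capitals mark GATAA (the GATA motif) in Cpox, GGGCGG (the GC box) in Blvrb and GCGCATGC (the core of the NRF1 motif) in Alas1, on either strand.
Cpox: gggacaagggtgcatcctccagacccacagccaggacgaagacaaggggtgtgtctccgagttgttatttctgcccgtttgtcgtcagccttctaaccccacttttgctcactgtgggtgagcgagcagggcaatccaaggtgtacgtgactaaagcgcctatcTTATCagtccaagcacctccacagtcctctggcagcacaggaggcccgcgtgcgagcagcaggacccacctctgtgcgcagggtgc
Blvrb: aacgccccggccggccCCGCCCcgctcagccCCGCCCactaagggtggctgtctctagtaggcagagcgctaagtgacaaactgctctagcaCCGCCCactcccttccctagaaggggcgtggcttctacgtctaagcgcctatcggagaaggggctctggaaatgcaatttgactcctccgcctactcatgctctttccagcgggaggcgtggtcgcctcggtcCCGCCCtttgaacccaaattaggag
Alas1: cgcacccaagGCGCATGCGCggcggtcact
The NRF1 core occurred in 2.71% of all 32851 RefSeq promoter windows, the GATA motif in 25.4% and the GC box in 35.7%. The GC box was also found in windows of Alad, Urod, Uros, Ppox and Alas1, and the GATA motif also in one of Uros. An E-box, CACGTG, was found in windows of Alad, Urod and Uros and in 7.15% of all windows. The core of the antioxidant response element, TGACNNNGC, was found in no window of those 7 members and in 12.4% of all windows, and Hmox1 and Fech were not searched. Such matches describe letters and do not show that a factor was bound.

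The 7 synthesis genes together had 761 RPM in MHs and 759 RPM in SHs. The log2 ratio of their summed reads was -0.0028, with an interval of -0.03 to 0.03. Only Cpox was called among them, and the other 6 had log2 ratios between -0.10 and 0.07 with intervals that included 0.
Alas1 (chromosome 9, 106233455 to 106248654 of mm10), which encodes the synthase of the first step in the liver, had 7160 reads in MHs and 18168 reads in SHs. These were 422 RPM in MHs and 429 RPM in SHs. Its log2 ratio was 0.02, and its interval of -0.01 to 0.06 included 0. Alas1 took 55.4% of the reads of the 7 synthesis genes in MHs (95% Clopper-Pearson interval 54.6 to 56.3) and 56.5% in SHs (56.0 to 57.0), a share that does not depend on how the libraries are scaled. Alas1 thus had more reads than the other 6 genes together in both libraries.

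The enzymes of the middle steps had far fewer reads than Alas1. Alad, which joins 2 molecules of aminolevulinate into porphobilinogen, had 58.3 RPM in MHs and 61.4 RPM in SHs, for a log2 ratio of 0.07 (-0.03 to 0.18). Uros, which closes the tetrapyrrole ring, had 15.8 RPM in both libraries, from 269 reads in MHs and 669 reads in SHs. Urod, which removes carboxyl groups from uroporphyrinogen, had 56.7 RPM in MHs and 55.5 RPM in SHs, with an interval of -0.14 to 0.08. None of these 3 genes differed between the libraries beyond counting error.

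Cpox was the exception. Cpox (chromosome 16, 58670292 to 58717636 of mm10), which encodes the coproporphyrinogen oxidase that returns the pathway to the mitochondrion, had 1416 reads in MHs and 2924 reads in SHs. These were 83.4 RPM in MHs and 69.0 RPM in SHs, 1.21-fold lower in SHs, and the log2 ratio was -0.27 (-0.36 to -0.18). Cpox took 11.0% of the synthesis reads in MHs (10.4 to 11.5) and 9.09% in SHs (8.78 to 9.41), so the lower share did not rest on the scaling. The ratio lay just past the 1.2-fold threshold. It was no longer past it when the 10 genes with the most reads, or the genes of the mitochondrial genome, were left out of the totals, which gave log2 ratios of -0.24 and -0.26. The longest single stretch like one in another gene, such as a repeat, covered 7.43% of the longest Cpox transcript. The cover of all such stretches together was not computed.

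The last 2 enzymes of synthesis were not called. Ppox, which oxidizes protoporphyrinogen, had 226 reads in MHs and 525 reads in SHs, and the log2 ratio of -0.10 came with an interval from -0.33 to 0.13. Exons of B4galt3 on the other strand cover 17.5% of the exon bases of Ppox, and B4galt3 had 178 reads in MHs and 368 reads in SHs, so reads of the pair are uncertain without strand. Fech, which inserts iron into protoporphyrin, had 111 RPM in MHs and 116 RPM in SHs, for a log2 ratio of 0.06 (-0.02 to 0.14). The longest single stretch like one in another gene, such as a repeat, covered 18.0% of its longest transcript, so part of its reads is uncertain.

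**Figure D1:**
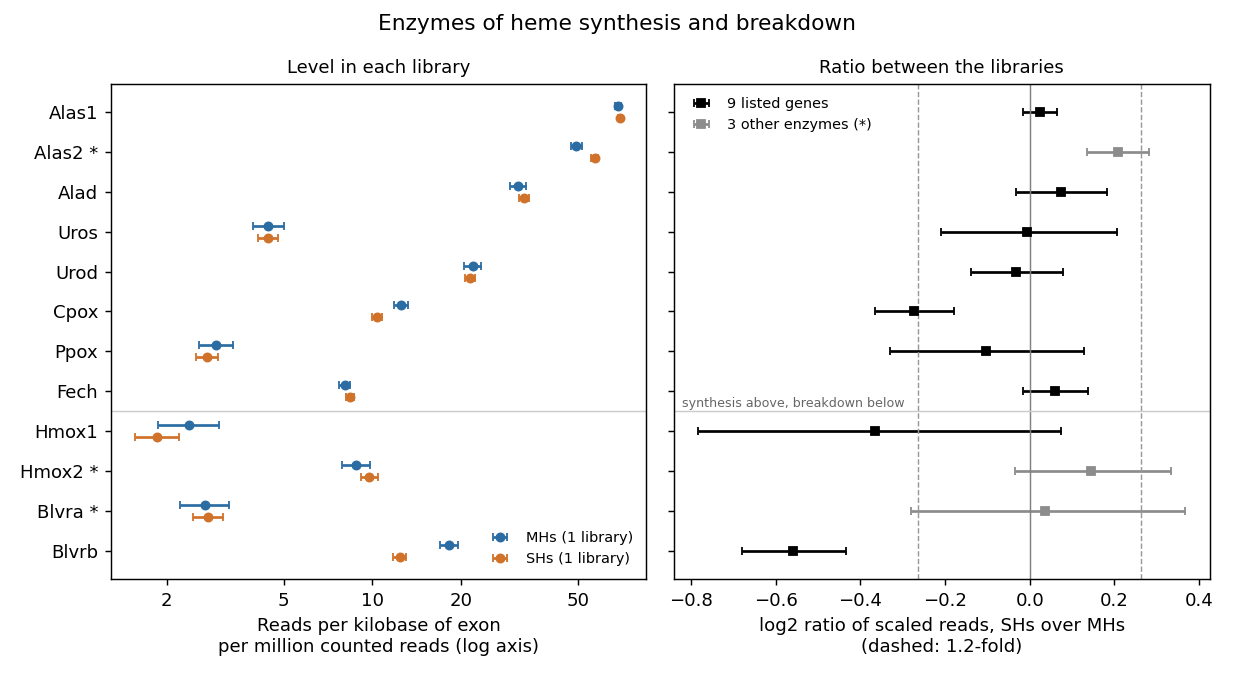
Levels (left, RPM per kilobase of exon, log axis, bars are 95% Poisson intervals) and log2 ratios of SHs over MHs (right, bars are 95% Clopper-Pearson intervals) of 12 enzymes, in the order of the pathway. Blvrb at -0.56 and Cpox at -0.27 lie left of the dashed line of 1.2-fold with intervals wholly under 0, and the interval of Hmox1 is the widest.

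Of the 2 breakdown genes, Blvrb was called lower in SHs and Hmox1 was not called. Blvrb (chromosome 7, 27447978 to 27466144 of mm10), which encodes an NADPH-dependent reductase of biliverdin and flavins, had 861 reads in MHs and 1459 reads in SHs. These were 50.7 RPM in MHs and 34.4 RPM in SHs, 1.47-fold lower in SHs. Its log2 ratio of -0.56 (-0.68 to -0.43) was the lowest of the 9 genes, and 2.33% of all genes with at least 200 reads had a lower one. No other annotated exon overlaps Blvrb, and no other transcript had a stretch like it.
Hmox1 (chromosome 8, 75093621 to 75100589 of mm10), which encodes the inducible heme oxygenase that opens the heme ring, had the fewest reads of the 9 genes, 71 in MHs and 138 in SHs. These were 4.18 RPM in MHs and 3.26 RPM in SHs. Its log2 ratio was -0.36, and its interval of -0.78 to 0.07 included 0, so a difference was not detectable at this depth. Hmox1 was far above the level that 3 reads give, 0.177 RPM in MHs and 0.0708 RPM in SHs.

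Macrophages of the liver take up red blood cells and are known to express Hmox1, and most of their markers were called lower in SHs. The 11 macrophage markers together had 383 reads in MHs and 44 reads in SHs, which were 22.6 and 1.04 RPM. Of the 9 with at least 10 reads, 8 were called lower in SHs, with log2 ratios of the list from -5.46 to -0.27. The defining markers Clec4f and Cd5l had 92 and 79 reads in MHs against 6 and 4 in SHs. Marco had 3 reads in MHs and 0 in SHs, too few for a call. Markers of endothelial cells were lower as well (8 of 8 called lower, 72.4 RPM in MHs and 3.94 RPM in SHs). So were those of stellate cells (6 of 6 with at least 10 reads, 17.3 and 2.01 RPM). The 5 cholangiocyte markers summed to 13.9 RPM in MHs and 14.1 RPM in SHs. Nearly all of these reads were of Sox9, called higher, and Spp1, called lower. Krt19, Krt7 and Epcam had too few reads for a call. Krt19 and Krt7 had 1 read in each library, and Epcam had 6 in MHs and 1 in SHs. The part of these cells in the ratios of Blvrb and Hmox1 was not tested. The zones of the lobule also differed between the libraries, with 3264 RPM in MHs and 917 RPM in SHs for the central-vein markers (log2 ratios from -4.23 to -1.08) and 10294 and 13333 RPM for the portal markers (0.06 to 1.29). Their part in the values of Blvrb, Cpox, the Cyp genes and bilirubin handling was not tested.

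**Figure D2:**
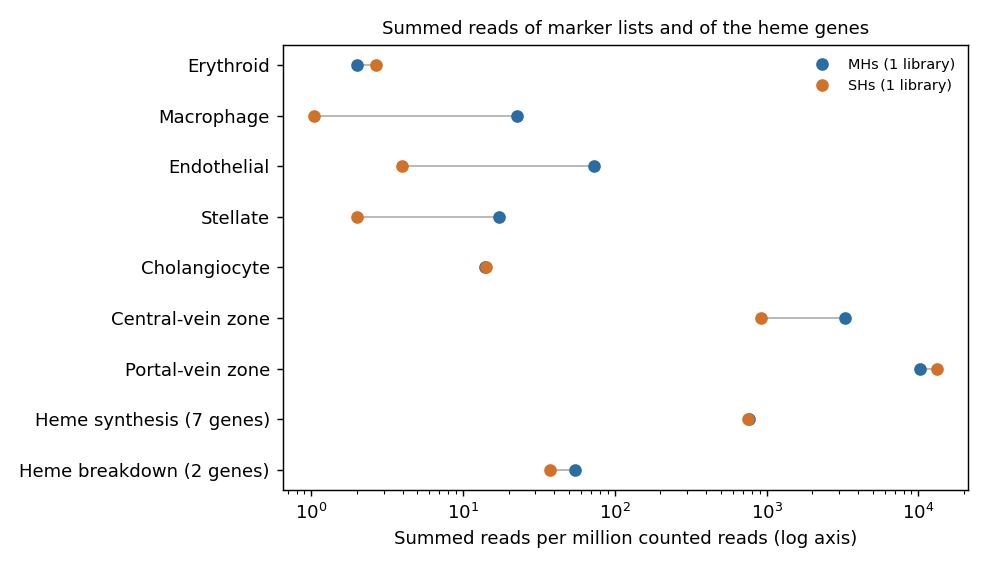
Summed RPM (log axis) of marker lists and of the heme genes, 1 point per library. The macrophage sum is 22.6 in MHs and 1.04 in SHs, whereas the synthesis genes lie at 761 and 759 and the breakdown genes at 54.9 and 37.7.

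The calls among the 9 genes were set against those over all genes. Of the 9, 2 were called lower and 0 higher at 1.2-fold, where 9.55% of the 9608 genes with at least 200 reads were called lower and 11.6% higher. At 1.5-fold none of the 9 was called, where 2.1% of these genes were lower and 1.86% higher. By the interval alone the count was again 2 lower and 0 higher, against 16.9% and 23.2% of all genes. The median log2 ratio of the 9 genes was -0.03, beside 0.03 over all genes with at least 200 reads.

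**Figure D3:**
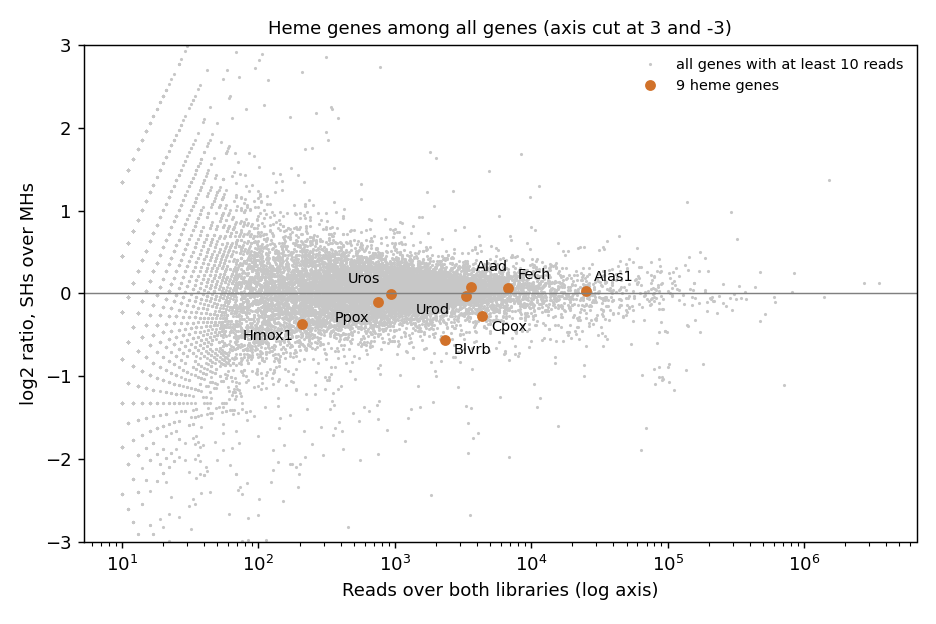
Log2 ratio of SHs over MHs against the reads over both libraries (log axis) for all 15521 genes with at least 10 reads (grey) and the 9 heme genes (orange). Alas1, Alad, Fech, Uros and Urod lie near 0 inside the cloud, Blvrb lies at its lower edge, and Hmox1, with few reads, lies where the cloud is wide.

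Levels of different genes were compared as RPM per kilobase of exon (RPKM), with exon lengths from GENCODE M21. Alas1 stood highest, with 68.3 RPKM in MHs and 69.5 RPKM in SHs. Alad followed with 31.2 and 32.8 RPKM, and Urod with 21.9 and 21.4 RPKM. Blvrb had 18.2 RPKM in MHs and 12.4 RPKM in SHs, above Cpox with 12.5 and 10.4 RPKM.
The lower places were taken by Fech (8.05 RPKM in MHs and 8.39 in SHs), Uros (4.43 and 4.42 RPKM), Ppox (2.95 and 2.75 RPKM) and Hmox1 (2.39 and 1.86 RPKM). The order of the 9 genes was the same in both libraries. Neighbours in that order differed by more than their counting intervals except Ppox and Hmox1 in MHs. With the length of the longest transcript in place of all exons, 6 of 9 genes kept their place in MHs and 7 in SHs, and the genes that changed places were Alad and Urod in both libraries and Blvrb in MHs.

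The 3 further enzymes described, Alas2, Hmox2 and Blvra, were not called either way, and all 3 had log2 ratios above 0. Alas2, the synthase isozyme of red blood cell precursors, had 2008 reads in MHs and 5784 reads in SHs. These were 118 RPM in MHs and 137 RPM in SHs, for a log2 ratio of 0.21 (0.13 to 0.28). Per kilobase, Alas2 stood second to Alas1, with 49.2 RPKM in MHs and 56.8 RPKM in SHs. Alas1 made up 78.1% of the reads of both isozymes in MHs (77.2 to 78.9) and 75.9% in SHs (75.3 to 76.4).
Markers of red blood cell precursors had few reads in either library. Of 10 erythroid markers, 9 were in the table, and together they had 34 reads in MHs and 113 reads in SHs. Most of these belonged to Klf1, an erythroid transcription factor, with 30 reads in MHs and 91 reads in SHs. The globin genes Hba-a1, Hba-a2 and Hbb-bs had 0, 1 and 0 reads in MHs and 9, 5 and 6 in SHs. How reads that match more than 1 gene were counted is not given, so the globin counts are uncertain. Exons of Apex2 on the other strand cover 12.9% of the exon bases of Alas2, and Apex2 had 100 reads in MHs and 253 reads in SHs, far fewer than Alas2.

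Hmox2, the constitutive heme oxygenase, had 332 reads in MHs and 917 reads in SHs, for a log2 ratio of 0.15 (-0.04 to 0.33). Exons of Cdip1 on the other strand cover 40.2% of the exon bases of Hmox2. Cdip1 had 652 reads in MHs and 1561 reads in SHs, more than Hmox2. The reads of Hmox2, and the shares that follow, are therefore uncertain. Hmox1 made up 17.6% of the reads of both oxygenases in MHs (14.0 to 21.7) and 13.1% in SHs (11.1 to 15.3). Overlap of these intervals does not decide whether the shares differ, which was not tested.
Blvra, the main biliverdin reductase of adult tissue, had 112 reads in MHs and 287 reads in SHs, for a log2 ratio of 0.03 (-0.28 to 0.37). Blvrb made up 88.5% of the reads of both reductases in MHs (86.3 to 90.4) and 83.6% in SHs (81.7 to 85.3). Blvra was not called, although its interval reached down to -0.28.

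Downstream of the reductases, bilirubin is taken up, conjugated and exported. Of 6 genes of bilirubin handling, 4 were called lower and 0 higher, where 11% of the 15521 genes with at least 10 reads were called lower and 9.57% higher. Their median log2 ratio was -0.42, beside 0.02 over those genes. Slco1b2, an uptake carrier of the sinusoidal membrane that takes bilirubin from blood, had 634 RPM in MHs and 319 RPM in SHs, for a log2 ratio of -0.99 (-1.03 to -0.95). Abcc2, which exports bilirubin glucuronides into bile, had 488 RPM in MHs and 334 RPM in SHs, for a log2 ratio of -0.55 (-0.59 to -0.51).
Ugt1a1, which conjugates bilirubin, had 139 RPM in MHs and 114 RPM in SHs, for a log2 ratio of -0.29 (-0.36 to -0.22). It shares its last exons with other Ugt1a genes, so its reads are uncertain. The carrier Slco1a1 had a log2 ratio of -0.55 (-0.61 to -0.50) and Slco1a4 one of -0.19 (-0.32 to -0.06), which was not called. Abcc3, which exports conjugates back to blood, had 206 RPM in MHs and 210 RPM in SHs, with an interval of -0.03 to 0.08.

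**Figure D4:**
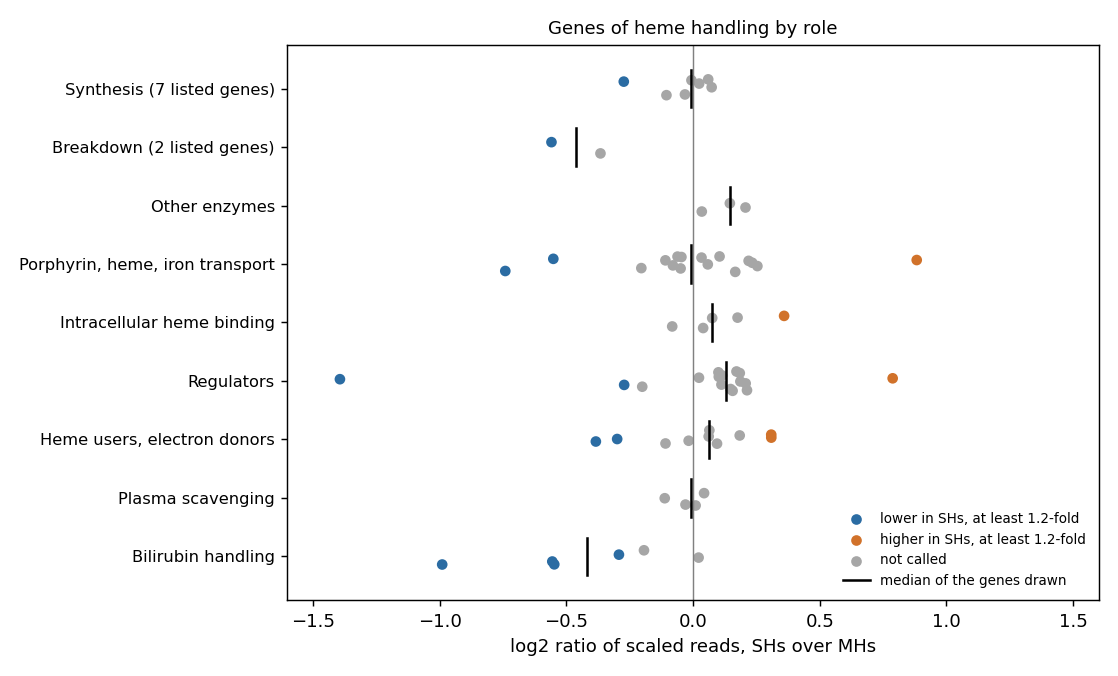
Log2 ratios of SHs over MHs of the genes of heme handling, grouped by role, 1 point per gene, with the median of each group as a black line. Bilirubin handling holds 4 genes called lower and has a median of -0.42, the synthesis genes lie around 0, and Cd163, which had 0 reads in SHs, is not drawn.

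Genes that use heme were called in both directions. The 99 Cyp genes together had 18382 RPM in MHs and 13845 RPM in SHs, for a log2 ratio of -0.41 (-0.42 to -0.40). Cyp2e1, also a central-vein marker, had 2243 RPM in MHs and 606 RPM in SHs, and without it the ratio of the sum was -0.29 (-0.29 to -0.28). Counted singly, 70 Cyp genes reached 10 reads, and 39 of these were called lower and 2 higher. Of all genes with at least 10 reads, 11% were called lower and 9.57% higher. The paper reports lower Cyp expression in SHs from its RNA-seq, and significantly lower Cyp3a11, Cyp1a2 and Cyp2e1 by quantitative PCR. Of 10 other heme-using enzymes and electron donors, 2 were called lower and 2 higher, beside the 11% and 9.57% of all genes. Por, the reductase that feeds electrons to cytochromes P450 and to heme oxygenase, had a log2 ratio of -0.38 (-0.45 to -0.32), and Cyb5a, a cytochrome b5, had one of -0.30 (-0.34 to -0.26). Cat, the heme enzyme catalase, had 1663 RPM in MHs and 2059 RPM in SHs, for a log2 ratio of 0.31 (0.29 to 0.33), and Cyb5r3, a cytochrome b5 reductase, also had 0.31. Tdo2, the heme-dependent tryptophan dioxygenase, lay at 0.06.

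Of 16 regulators of Alas1 and Hmox1, 2 were called lower and 1 higher, near the 11% and 9.57% of all genes, and their median log2 ratio was 0.13. Nr1i3, the nuclear receptor CAR, which is known to induce Alas1 and genes of bilirubin clearance, had 679 reads in MHs and 645 reads in SHs. These were 40.0 RPM in MHs and 15.2 RPM in SHs, for a log2 ratio of -1.39 (-1.55 to -1.24), the lowest of the list. Nr1d1, a heme-binding repressor of the circadian clock, had a log2 ratio of -0.27 (-0.35 to -0.19), as close to the 1.2-fold threshold as Cpox. Mafk is a small Maf protein that pairs with Bach1 and Nfe2l2 at the Hmox1 gene. It had 63 reads in MHs and 273 reads in SHs, for a log2 ratio of 0.79 (0.40 to 1.22). Mafg, another small Maf protein, had 673 reads in MHs and 1462 reads in SHs. Its log2 ratio was -0.20 (-0.33 to -0.07), which was not called. Bach1, the heme-sensing repressor of Hmox1, lay at 0.15 (0.02 to 0.28) and Nfe2l2, its activator, at 0.02 (-0.11 to 0.16). Clpx and Lonp1, which act on the Alas1 protein in mitochondria, both lay at 0.21.

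Of 16 genes of porphyrin, heme and mitochondrial iron transport, 2 were called lower and 1 higher, again near the shares over all genes, with a median log2 ratio of -0.01. Abcg2, an exporter of porphyrins, had 70.2 RPM in MHs and 47.9 RPM in SHs, for a log2 ratio of -0.55 (-0.65 to -0.45). The other calls rest on few reads: Flvcr1 (counted as Mfsd7b) had 36 reads in MHs and 54 reads in SHs, for a log2 ratio of -0.74 (-1.37 to -0.08), and Flvcr2 (counted as Mfsd7c) had 42 and 195, for a log2 ratio of 0.88 (0.41 to 1.41). Slc25a38, which brings glycine into the mitochondrion for the first step, and Slc25a37, which brings in iron for the last, lay at 0.10 and -0.05 with intervals that included 0.
Of 5 genes of intracellular heme binding, only Gstp1 was called, with a log2 ratio of 0.36 (0.33 to 0.39), and its reads are uncertain because of its close paralog Gstp2. Pgrmc1, a heme-binding membrane protein, had 795 RPM in MHs and 751 RPM in SHs. Of the 5 genes of plasma heme and hemoglobin scavenging, Hpx (4066 RPM in MHs and 3984 RPM in SHs), Hp (2997 and 2774 RPM), Ambp and Lrp1 were not called. Cd163, the hemoglobin receptor of macrophages, had 15 reads in MHs and 0 reads in SHs. With 3 reads in place of the 0 in SHs, its level would be 12.5-fold lower in SHs. That value leaves out the counting error of the 15 reads, and the interval of its log2 ratio reached up to -3.16.

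The 61 genes outside the 9 members, from the further enzymes to plasma scavenging, gave 11 calls lower and 5 higher at 1.2-fold. Of the 15521 genes with at least 10 reads, 11% were called lower and 9.57% higher. Abcb6, Flvcr1 and Cd163 were the only genes of the 61 with fewer than 200 reads. Of the others, 9 were lower and 5 higher. Of all genes with at least 200 reads, 9.55% were lower and 11.6% higher. At 1.5-fold 4 of the 61 were lower and 2 higher, where 6.2% of the genes with at least 10 reads were lower and 3.5% higher. Over genes with at least 200 reads these shares were 2.1% and 1.86%, and the 4 include Flvcr1 and Cd163, which had few reads. At 2-fold 2 were lower and 0 higher, where 4.46% of the genes with at least 10 reads were lower and 2% higher. By the interval alone 18 were lower and 19 higher, beside 15.5% and 16.8%.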

How the data were processed

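Poly(A) RNA of 1 library of MHs and 1 of SHs was sequenced on Ion Proton. The deposited values are whole read counts per gene symbol, which the authors did not normalize. The methods describe trimming, alignment to mm10 with CLC Genomics Workbench and RPKM values. The program and annotation behind the deposited counts are not given in the sources used here, nor is the use of strand.

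Counts were scaled to RPM in Python 3.11.15 (pandas 2.3.3, scipy 1.17.1, numpy 2.4.6), and ratios took 0.5 added reads. Background shares were taken over genes with at least 10 or 200 reads. Exon lengths and overlaps came from GENCODE M21 (mm10), in which 39469 symbols were found, and like transcripts from blastn 2.17.0. A like stretch was at least 200 bases long with at least 85% identity. Scaling alternatives were edgeR 4.0.16 (TMM) and DESeq2 1.42.0 (size factors) in R 4.3.3. The calculation was tested on simulated data. The intervals cover counting error only, since the reads carried no molecular identifiers. With 1 library per group, no p-value was computed and no gene was named for a like pattern.

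The members, gene lists and thresholds were chosen with earlier results of these data known, and the promoter motifs after the values were seen. All members were named. Genes of the other lists were described by counts, with those called or with the most reads named first. Some genes of these lists are not reported here.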

Additional observations from a re-analysis of the deposited data

How the results depend on the processing

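No paired analysis was possible because each group was a single library, and no library could be left out. Scaling by TMM, DESeq2 size factors, the total less the 10 top genes by reads or the total without mitochondrial genes shifted all log2 ratios by 0.01 to 0.03, and 2 added reads kept each member within its interval. Among the recomputed values other than the Cyp sum, 79 stayed within their interval or, for counts, within 1.5 times, 12 moved and 0 reversed. A reversal was counted only for the called members, Cpox and Blvrb. Near 0, signs did change within the interval. The log2 ratio of Uros went from -0.006 to 0.004 with TMM. The median of the 9 genes went from -0.03 to 0.009 with Alas2, Hmox2 and Blvra added. The log2 ratio of the Cyp sum went from -0.41 to -0.29 without Cyp2e1, a choice made after seeing the data. The number of members called lower was 1 with the total less those 10 genes and 1 without mitochondrial genes, where Cpox lay just short of 1.2-fold. It was 0 at 1.5-fold and 0 at 2-fold. Of 61 other heme genes, 11 were called lower and 5 higher, beside 11% and 9.57% of all genes. At 1.5-fold the counts were 4 and 2, at 2-fold 2 and 0, and by the interval alone 18 and 19. These counts follow from the threshold itself. With Alas2 among the synthesis enzymes, an alternative chosen after seeing the data, the share of Alas1 was 48.0% in MHs and 47.9% in SHs, since more reads then stand below it. Depth limits Hmox1 most, with 71 reads in MHs.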

Other observations

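Hmox1 is known as a gene of the oxidative stress response. Of 7 other listed genes of that response, 6 had at least 10 reads, and of these 2 were called higher and 0 lower, where 9.57% and 11% of all genes were, with a median log2 ratio of 0.13. Osgin1 had 206 RPM in MHs and 259 RPM in SHs, for a log2 ratio of 0.33 (0.28 to 0.39). Srxn1, which encodes sulfiredoxin, had 332 reads in MHs and 1028 reads in SHs, for a log2 ratio of 0.31 (0.13 to 0.49). Gclc, the catalytic subunit of the first enzyme of glutathione synthesis, lay at 0.02 (-0.03 to 0.06). Nqo1 had 43 reads in MHs and 113 reads in SHs, with an interval of -0.44 to 0.62.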
